A study of Mus musculus with 10 samples.

Results

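The genes described here encode the machinery of DNA replication and the S phase of the cell cycle. They are 42 listed genes, from the subunits of the MCM helicase to cyclin E and the enzymes of deoxynucleotide supply, and all 42 were found among the 38887 genes of the deposited table by matching Ensembl identifiers to mouse symbols. Their transcripts were measured by RNA sequencing in hematopoietic progenitor cells taken from the bone marrow of mice that bore Lewis lung carcinoma, a transplantable mouse lung tumour. Every mouse carried the tumour, so no group without a tumour entered the comparison. One group had been given vehicle for 2 weeks, and its samples are titled untreated. The other had been given BMS-595 at 60 mg/kg for 2 weeks, an inhibitor of the protein kinase CK2, and is called CK2i. Each group had 5 libraries, numbered as in the labels. The mouse strain, age and sex, the way the progenitors were isolated and whether each library came from a separate mouse are not stated in the labels, so p-values measure only the spread between these samples, which may be technical.

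Replication starts from origins that are loaded with the MCM2-7 helicase in G1, by a step called licensing that needs CDC6 and CDT1. At the start of S phase, cyclin E with CDK2 and other kinases turns the loaded helicase into an active one by adding CDC45 and the GINS complex, and DNA polymerases, the sliding clamp PCNA and its loader follow. E2F transcription factors raise most of these genes together as cells pass from G1 into S phase, so their transcripts are high in dividing progenitors and low in resting stem cells and mature blood cells. In RNA from a bulk of cells, more cells in S phase and more RNA of these genes per cell cannot be told apart.

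The promoters of these genes show what they share in sequence. Windows of 300 bases, from 250 before to 50 after an annotated RefSeq start (GRCm38.p6), were found for 33 of the 42 genes, with 37 windows in all. The E2F word TTTCGCGC or TTTGGCGC, searched on both strands, stood in 10 of the 37 windows (27.0%) and in 267 of all 32851 windows of the same length (0.813%). CCAAT, the word bound by NF-Y and common in cell cycle promoters, stood in 25 of the 37 windows (67.6%) and in 37.4% of all windows. TTTGAA or TTCGAA, words of the CHR element of genes expressed in G2 and mitosis, stood in 7 of the 37 windows (18.9%) and in 19.2% of all. A match is a description of letters and does not show that a factor binds. The windows below are shown upstream of the start and outside annotated exons, 5′ to 3′ along the gene, with the E2F words and the NF-Y word in capitals. On the opposite strand the E2F words read GCGCGAAA and GCGCCAAA, and the NF-Y word reads ATTGG. Mcm6 had the most E2F words, 3, of which 2 overlap, and Mcm5 had 2 that overlap. Uhrf1 and Rrm2 were among the genes that rose in CK2i, and Rrm1 is the partner of Rrm2.
Mcm6, chr1:128359706-128359955, minus strand: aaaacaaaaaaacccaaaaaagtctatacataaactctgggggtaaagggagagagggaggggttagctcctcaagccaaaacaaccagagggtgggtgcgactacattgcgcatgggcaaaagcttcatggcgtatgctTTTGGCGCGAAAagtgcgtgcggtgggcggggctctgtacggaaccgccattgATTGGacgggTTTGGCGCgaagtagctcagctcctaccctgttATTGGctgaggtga
Mcm5, chr8:75109259-75109508, plus strand: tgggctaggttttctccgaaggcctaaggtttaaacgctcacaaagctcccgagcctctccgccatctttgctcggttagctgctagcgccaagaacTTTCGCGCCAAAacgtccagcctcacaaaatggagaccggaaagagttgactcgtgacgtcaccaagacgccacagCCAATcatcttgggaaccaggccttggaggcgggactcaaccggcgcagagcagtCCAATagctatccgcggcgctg
Uhrf1, chr17:56304063-56304312, plus strand, before a start inside the gene: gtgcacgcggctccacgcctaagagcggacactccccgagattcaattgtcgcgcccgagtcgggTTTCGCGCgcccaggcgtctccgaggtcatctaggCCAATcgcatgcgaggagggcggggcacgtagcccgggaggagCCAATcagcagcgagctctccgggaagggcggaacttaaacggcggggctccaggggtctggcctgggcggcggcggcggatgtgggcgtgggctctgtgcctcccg
Rrm2, chr12:24708004-24708240, plus strand: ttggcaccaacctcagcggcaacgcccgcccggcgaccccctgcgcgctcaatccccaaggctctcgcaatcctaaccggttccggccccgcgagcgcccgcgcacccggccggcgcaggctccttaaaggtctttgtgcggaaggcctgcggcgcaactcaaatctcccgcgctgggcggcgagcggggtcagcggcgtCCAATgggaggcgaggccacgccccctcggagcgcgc
Rrm1, chr7:102441445-102441694, plus strand: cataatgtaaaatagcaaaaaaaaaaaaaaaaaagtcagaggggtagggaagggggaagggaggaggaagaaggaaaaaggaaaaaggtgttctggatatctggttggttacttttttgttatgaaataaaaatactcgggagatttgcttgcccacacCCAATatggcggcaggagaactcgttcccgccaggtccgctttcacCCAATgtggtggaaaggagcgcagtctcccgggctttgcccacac
The E2F words began 110, 106 and 47 bases before the start in Mcm6, 153 and 149 in Mcm5 and 185 in Uhrf1. The Rrm2 and Rrm1 windows held CCAAT and neither E2F word, which says only that these letters are not in these windows. Of the 4 genes that passed the test below, 3 had a window, and 1 of these, Uhrf1, held an E2F word.

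Levels of different genes were compared in FPKM, which scales counts by transcript length and depth. All 42 genes were well expressed, with means over the 10 libraries between 9.05 FPKM for Brip1 and 358 FPKM for Pcna. Pcna encodes the ring that holds polymerases on DNA, and its 5 vehicle libraries were at 329.5, 363, 333, 345 and 359 FPKM. The next levels were those of Mcm6 (251 FPKM), Mcm7 (238) and Rrm1 (162). Within the MCM ring, whose 6 subunits sit in it once each, transcripts were unequal. Mcm6 and Mcm7 made up 25.1 ± 0.355% and 24.1 ± 0.459% of the summed FPKM of Mcm2 to Mcm7 in vehicle libraries (SD, n = 5), Mcm3, Mcm5 and Mcm2 between 12.9 ± 0.161% and 14.4 ± 0.153%, and Mcm4 9.40 ± 0.134%. The licensing factors lay below the helicase they load, Cdt1 at 74.1 and Cdc6 at 49.2 FPKM. CDC45 and the GINS subunits join the ring, and their transcripts were lower again: Cdc45 was at 41.2, Gins1 at 40.0 and Gins2 at 36.7 FPKM. E2f1, an activating E2F factor, was at 9.61 FPKM, the second lowest, and E2f8, a repressing member of the family, at 30.4 FPKM.

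**Figure D1:**
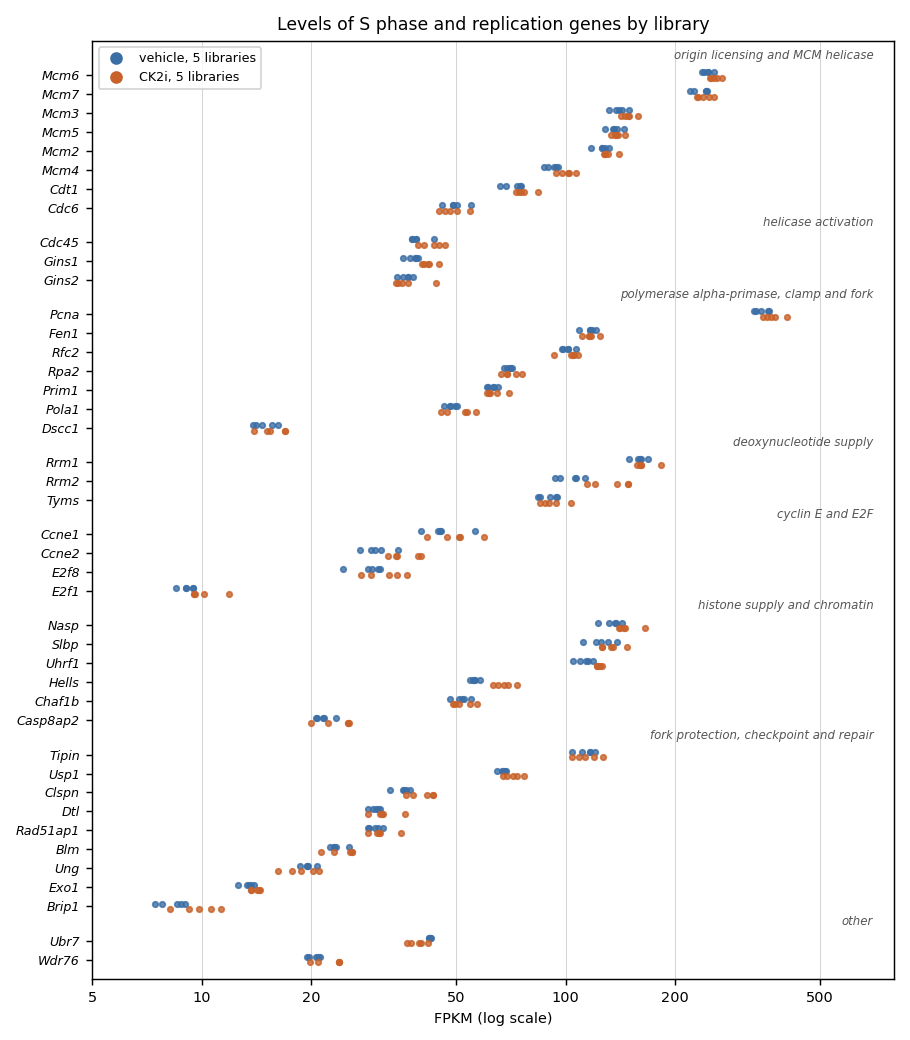
FPKM of the 42 genes (log axis) in each vehicle library (blue) and CK2i library (orange), ordered by level within 8 groups by role. Levels run from Brip1 near 9.05 to Pcna near 358 FPKM, and for most genes the points of both groups overlap.

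As a set the 42 genes differed little between the groups. In edgeR's quasi-likelihood test over 14346 genes, 4 of the 42 genes passed an adjusted p of 0.05, all higher in CK2i, and none was lower (2 were lower at an unadjusted p under 0.05, 1 by DESeq2 and 0 by limma). These were Rrm2, Hells, Ccne2 and Uhrf1. Over all tested genes 13.2% passed, 6.43% higher and 6.76% lower, so 4 of 42 is a share near that over all genes. An unadjusted p under 0.05 was reached by 14 of the 42 and by 34.6% of all tested genes. The differences were small in size. Log2 differences ran from -0.13 for Ung to 0.34 for Rrm2, with a median of 0.078 beside -0.00062 for all tested genes. They lay above 0 for 39 of the 42 genes and for 49.8% of all tested genes. The exceptions were Cdc6, Ung and Ubr7. The count above 0 depended on the processing. It was 33 of 42 with upper-quartile scaling, 34 with no filter on low counts and 29 when 1 surrogate variable was added. Without single libraries it was 33 to 39. The 42 values come from the same 10 libraries and are not independent of each other. For 35 of the 42 genes the 95% interval of the difference lay within 1.25-fold in either direction. The 7 others were Rrm2, Hells, Ccne2, Ccne1, Brip1, Clspn and Tyms. The interval lay within this limit for 46.2% of all tested genes, and for 39 of 42 other replication genes described below. The 1.25-fold limit was chosen after the values were seen.

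**Figure D2:**
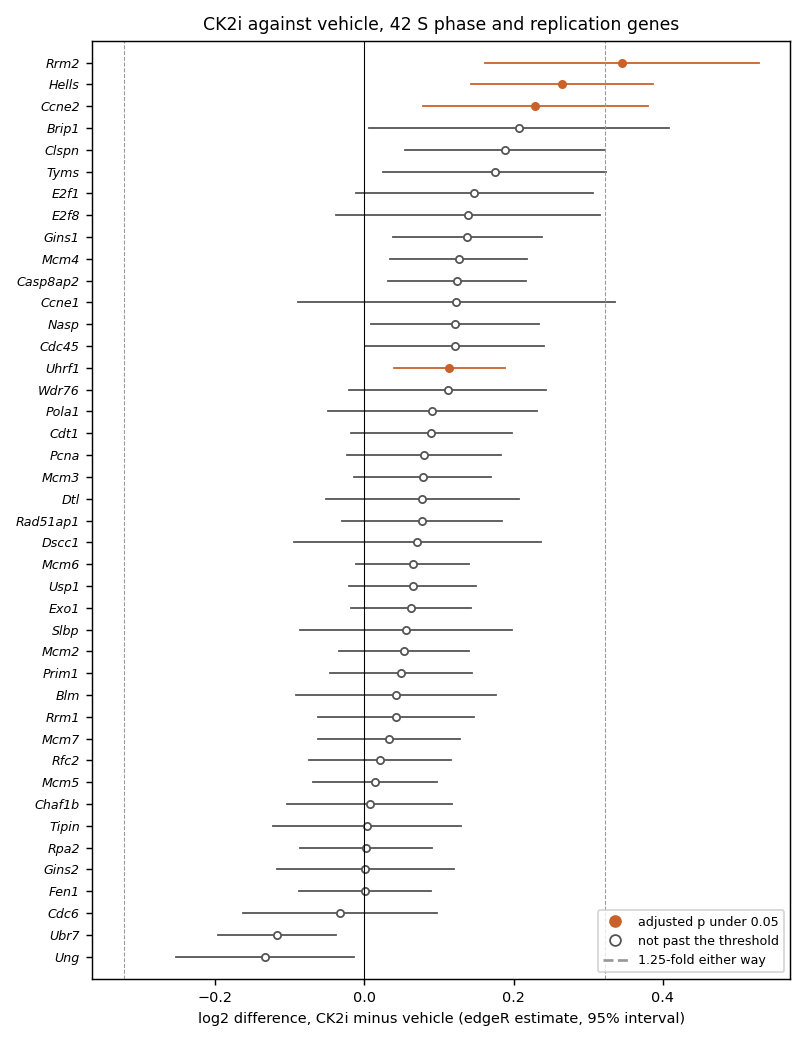
Log2 difference of CK2i minus vehicle for each of the 42 genes (edgeR estimate, horizontal axis) with its 95% interval, in order of size. Filled orange points passed an adjusted p of 0.05, and dashed lines mark 1.25-fold either way. The points run from -0.13 for Ung to 0.34 for Rrm2, with 39 of 42 above 0.

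The count of 4 was sensitive to single libraries. It was 0 without vehicle 4 or CK2i 5, 1 without vehicle 1, 3 or 5 or CK2i 2, and 2 without vehicle 2. It was 3 without CK2i 4, 4 without CK2i 1 and 10 without CK2i 3. The share of all tested genes that passed also moved, from 3.09% without CK2i 5 to 22.1% without CK2i 3. None of the 42 genes passed when CK2i 2 and 5 were both left out (1.2% of all genes) or when 1 surrogate variable was added (0.209%), and DESeq2 called 9 of the 42 (22.1% of all genes).

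Differences between libraries of a group were shared by many of the genes. The median over the 42 genes of log2 CPM relative to the vehicle mean was between -0.068 (vehicle 3) and 0.048 (vehicle 2) in vehicle libraries. It was 0.091, 0.14 and 0.093 in CK2i 2, 4 and 5, above all vehicle libraries, and 0.044 and -0.0092 in CK2i 1 and 3, inside the vehicle range. The medians over all tested genes stayed between -0.013 and 0.0057. CK2i 4 was the highest of the 10 libraries for 20 of the 42 genes and for 6.32% of all tested genes. Vehicle 3 was the lowest for 22 of the 42 and for 7.24% of all tested genes. Together the 42 genes took 0.734% to 0.801% of the counts of vehicle libraries and 0.779% to 0.874% of those of CK2i libraries. Libraries CK2i 2 and 5 stood apart from the other 8 on the first principal component of all tested genes (43.3 and 43.7, against 12.5 or less). CK2i 2 and 5 were highest for 10 and 4 of the 42 genes, and for 21.0% and 13.7% of all tested genes.

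**Figure D3:**
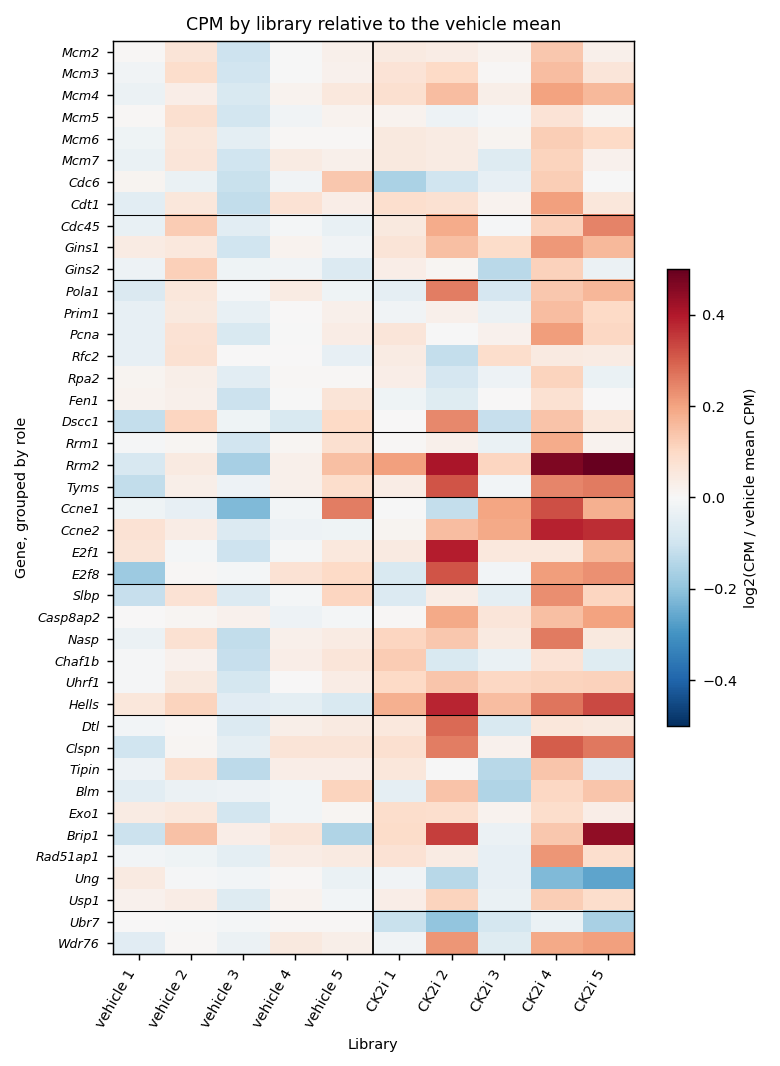
CPM of each gene (rows, grouped by role) in each library (columns), as log2 of the ratio to the vehicle mean, with red above and blue below. The column of vehicle 3 is mostly blue, those of CK2i 2, 4 and 5 mostly red, and the rows of Rrm2 and Hells are red in every CK2i library.

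Deoxynucleotide supply gave the largest difference. Rrm2 encodes the small subunit of ribonucleotide reductase, the enzyme that makes deoxynucleotides, and the subunit whose supply is tied to S phase (ENSMUSG00000020649, GRCm38 chromosome 12, 24708241 to 24714146). Its vehicle libraries 1 to 5 held 185, 202, 175, 199 and 217 CPM, and its CK2i libraries 226, 259, 211, 270.1 and 276 CPM. CK2i 1, 2, 4 and 5 exceeded every vehicle library, and CK2i 3 fell below the highest of them. Mean CPM was 196 ± 16.5 in vehicle and 248 ± 28.7 in CK2i (SD, n = 5 each), so that Rrm2 rose by 0.34 ± 0.084 on the log2 scale (SE, adjusted p = 0.0296 by edgeR). It missed the threshold without vehicle 1, 3 or 4 or without CK2i 2 or 5 (adjusted p = 0.0607 to 0.0734). Rrm1, the large subunit, was at 609, 615, 572, 615 and 645 CPM in vehicle and 614, 622, 597, 694 and 618 CPM in CK2i libraries, which overlapped apart from CK2i 4. Its difference was 0.042 ± 0.048 log2 (95% interval -0.063 to 0.15, edgeR adjusted p = 0.555). Tyms, thymidylate synthase, which makes the thymine nucleotide, was at 96.2, 107, 103, 106 and 111 CPM and 107, 130.2, 104, 124 and 126 CPM. CK2i 2, 4 and 5 lay above all vehicle libraries and CK2i 1 and 3 inside their range, and the gene did not pass (0.17 ± 0.068 log2, edgeR adjusted p = 0.0992, or 0.0343 without CK2i 3). On the deposited FPKM values the difference of Tyms was 0.037 log2.

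A ratio of genes of one enzyme or complex within a library does not depend on how libraries are scaled. The ratio of Rrm2 to Rrm1 FPKM was 0.610, 0.662, 0.626, 0.666 and 0.671 in the vehicle libraries and 0.744, 0.860, 0.728, 0.811 and 0.925 in the CK2i libraries. The lowest CK2i ratio exceeded the highest vehicle ratio, with means of 0.647 ± 0.0274 and 0.814 ± 0.0820 (SD, n = 5). In a two-sided exact permutation test over the 252 splits, p was 0.00794, the smallest the design allows, and 0.0397 after adjustment over the 10 ratios computed. Mcm4 as a share of the MCM sum was 9.36, 9.21, 9.46, 9.43 and 9.57% in vehicle and 9.59, 10.1, 9.59, 9.92 and 10.2% in CK2i libraries. These groups did not overlap either (means 9.40 ± 0.134% and 9.88 ± 0.281%, with the same p and adjusted p by the exact permutation test). The other 8 ratios, for the 5 other MCM subunits, Gins1 to Gins2, Ccne2 to Ccne1 and Prim1 to Pola1, did not pass (adjusted p = 0.0992 or more). The ratios were chosen after the values of single genes were seen in the same libraries. The p-values and their adjustment do not account for that choice, so they describe these ratios and are no separate evidence. The MCM shares are parts of one sum and are not independent of each other. Both calls were lost without any 1 vehicle library (adjusted p = 0.0794 to 0.159), in tests whose groups are then unequal.

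**Figure D4:**
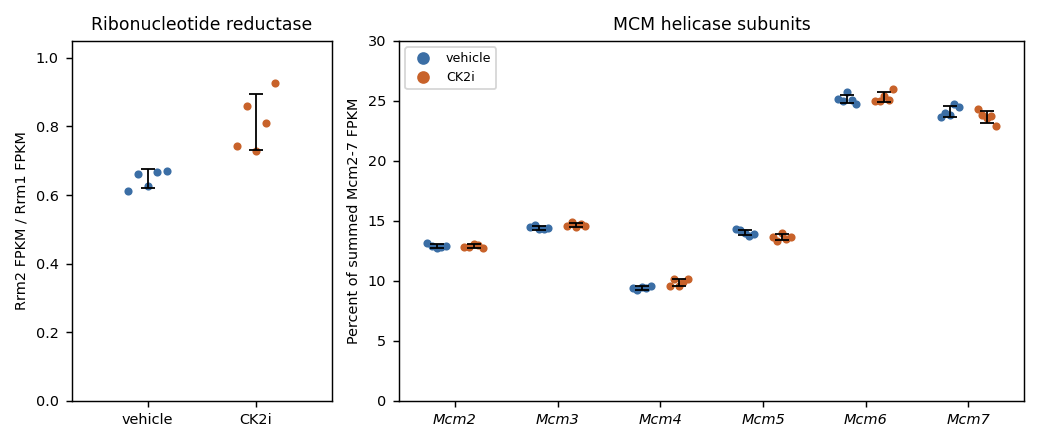
Left, the ratio of Rrm2 to Rrm1 FPKM per library. Right, each MCM subunit as a percent of the summed FPKM of Mcm2 to Mcm7 per library. Points are libraries, bars the mean ± SD (n = 5), blue vehicle and orange CK2i. The Rrm2 to Rrm1 ratio is at 0.671 or less in vehicle and at 0.728 or more in CK2i libraries, and the Mcm4 share is at 9.57% or less in vehicle and at 9.59% or more in CK2i libraries.

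Genes that license origins or form the helicase did not pass the test. Of the 8 genes of this role, 0 passed in edgeR, 1 had an unadjusted p under 0.05, and DESeq2 called 1 and limma 0. They had log2 differences from -0.032 for Cdc6 to 0.13 for Mcm4. Mcm6, the most abundant of the 8 by FPKM, was at 661, 697, 647, 673 and 672 CPM in vehicle and 692, 689, 677, 729 and 718 CPM in CK2i libraries, with overlap of the groups and a difference of 0.065 ± 0.034 log2 (95% interval -0.011 to 0.14, edgeR adjusted p = 0.204). Mcm4 was at 308, 321, 298, 318 and 325 CPM and 332, 349, 320.3, 361 and 351 CPM. Its CK2i libraries other than CK2i 3 exceeded every vehicle library, and its difference of 0.13 ± 0.042 log2 missed the threshold (edgeR adjusted p = 0.0640, or 0.0288 without CK2i 3). Mcm2, Mcm3, Mcm5 and Mcm7 differed by 0.053, 0.078, 0.014 and 0.033 log2, with standard errors of 0.038 to 0.043. For none of the 6 subunits did the 95% interval reach beyond -0.069 or 0.22 log2. Cdt1 and Cdc6, the loading factors, differed by 0.090 ± 0.049 and -0.032 ± 0.059 log2 (edgeR adjusted p = 0.215 and 0.724).

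The 3 genes that complete the active helicase also did not pass in edgeR, where 2 had an unadjusted p under 0.05, and DESeq2 called 1 and limma 0. Gins1, a GINS subunit, was at 35.6, 35.9, 32.3, 35.0 and 34.1 CPM in vehicle and 36.2, 38.3, 36.8, 40.2 and 38.7 CPM in CK2i libraries. The groups were apart by a narrow margin, and the difference of 0.14 ± 0.045 log2 missed the threshold (edgeR adjusted p = 0.0629, or 0.0497 without CK2i 3). Groups apart in this direction were found for 3 of the 42 genes, Gins1, Hells and Uhrf1, and for 5.18% of all tested genes. Cdc45 was at 72.6, 81.2, 71.8, 74.0 and 72.5 CPM and 77.0, 84.6, 74.1, 80.6 and 88.3 CPM, where vehicle 2 lay above CK2i 1, 3 and 4 (log2 difference 0.12 ± 0.055, edgeR adjusted p = 0.142). Gins2 differed by 0.00099 ± 0.054 log2 (adjusted p = 0.992), and 67.3% of its annotated exon bases overlap exons of Gse1 on the opposite strand. The labels do not say whether counting used strand, without which reads of both genes mix.

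At the fork, 7 genes of polymerase alpha, the clamp and Okazaki fragment joining had differences from 0.00083 log2 for Fen1 to 0.091 for Pola1, and none passed in edgeR, DESeq2 or limma or had an unadjusted p under 0.05 in edgeR. Pcna was at 426, 459.9, 415, 437 and 449 CPM in vehicle and 456, 436, 444, 505 and 470.3 CPM in CK2i libraries. CK2i 4 and 5 lay above and the other 3 inside the vehicle range (log2 difference 0.080 ± 0.047, edgeR adjusted p = 0.244). Pola1 and Prim1, the catalytic subunits of polymerase alpha and of the primase, differed by 0.091 ± 0.064 and 0.049 ± 0.043 log2. The smallest differences in this role belonged to Fen1, the flap endonuclease (0.00083 ± 0.040), and Rpa2, a subunit of the single-strand binding protein (0.0021 ± 0.040). Their 95% intervals ran from -0.088 to 0.090 and from -0.087 to 0.091 log2. Exons of Gm10143 on the opposite strand cover 78.8% of the exon bases of Fen1, though Gm10143 was at 0.046 FPKM. Exons of Tmem258, also on the opposite strand, cover 5.37% of the exon bases of Fen1, with Tmem258 at 122 FPKM beside 116 FPKM for Fen1. Exons of Lat2 cover 15.1% of the exon bases of Rfc2, with Lat2 at 18.8 FPKM. Rfc2, a subunit of the clamp loader, and Dscc1, part of an alternative loader used in cohesion, differed by 0.021 ± 0.043 and 0.071 ± 0.075 log2.

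Of the genes for entry into S phase, Ccne2 passed. It encodes cyclin E2, which activates CDK2 at the G1 to S transition (ENSMUSG00000028212, chromosome 4, 11191351 to 11204779). Its vehicle libraries held 50.6, 49.3, 45.9, 47.2 and 47.4 CPM and its CK2i libraries 48.6, 53.5, 54.9, 62.7 and 62.1 CPM. CK2i 2 to 5 lay above all vehicle libraries and CK2i 1 inside their range. The rise from 48.1 ± 1.85 to 56.4 ± 6.01 CPM was 0.23 ± 0.069 log2 (edgeR adjusted p = 0.0499), just inside the threshold. It was kept without CK2i 1 or CK2i 3 and lost without any other 1 library (adjusted p = 0.0689 to 0.118). It was also lost with upper-quartile scaling (0.0594), limma on FPKM (0.0694 and 0.0710), no filter on low counts (0.0738) and a replicate block (0.0969). The labels do not give the replicate numbers of that block as pairs. Exons of Ints8 on the opposite strand cover 17.4% of the exon bases of Ccne2, with Ints8 at 25.7 FPKM beside 33.2 FPKM for Ccne2. As for Gins2, reads of both genes mix if counting did not use strand. Ccne1, cyclin E1, was at 75.7, 74.8, 66.0, 76.0 and 91.9 CPM and 76.7, 70.9, 88.2, 96.0 and 86.9 CPM, with wide overlap (log2 difference 0.12 ± 0.10, edgeR adjusted p = 0.383). E2f1 and E2f8 differed by 0.15 ± 0.072 and 0.14 ± 0.080 log2 and did not pass (edgeR adjusted p = 0.170 and 0.240).

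Genes that copy chromatin with the DNA held 2 of the 4 calls. Hells encodes a remodelling ATPase of the SNF2 family that is needed for normal DNA methylation (ENSMUSG00000025001, chromosome 19, 38930915 to 38971051). Its vehicle libraries held 136, 141, 126, 126 and 124 CPM and its CK2i libraries 147, 169.7, 145, 157 and 164 CPM, and the 2 groups did not overlap. Hells rose from 130.4 ± 7.56 to 157 ± 10.6 CPM, by 0.26 ± 0.055 log2 (edgeR adjusted p = 0.0201), the smallest p of the 42 genes. It missed the threshold narrowly without vehicle 4, vehicle 5 or CK2i 5 (adjusted p = 0.0508 to 0.0529). Uhrf1 binds hemimethylated DNA behind the fork and brings in the maintenance methyltransferase DNMT1 (ENSMUSG00000001228, chromosome 17, 56303321 to 56323486). Its libraries held 355, 369, 335, 357 and 366 CPM in vehicle and 382, 392, 383, 386 and 386 CPM in CK2i. The CK2i values were tightly grouped and all above the vehicle values. Uhrf1 rose from 356 ± 13.3 to 386 ± 4.01 CPM, by 0.11 ± 0.034 log2 (edgeR adjusted p = 0.0487), a call that was kept without CK2i 3 and lost without any other 1 library (adjusted p = 0.0543 to 0.104). The Uhrf1 call was also lost with upper-quartile scaling (adjusted p = 0.0790), limma on FPKM (0.0503 and 0.0515) and no filter (0.113). It was lost too with a replicate block (0.0946), whose numbers the labels do not give as pairs.

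**Figure D5:**
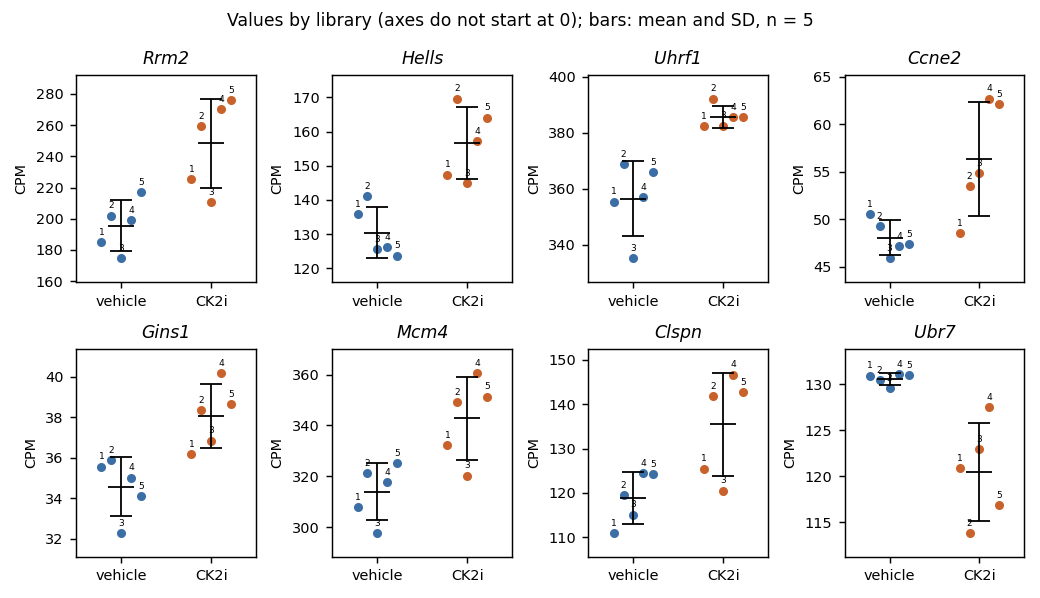
CPM by library for the 4 genes that passed (top) and 4 that came closest (bottom), numbered by replicate, with mean and SD (n = 5). Axes do not start at 0. The groups do not overlap for Hells, Uhrf1 and Gins1 (CK2i higher) and for Ubr7 (CK2i lower), and 1 CK2i library lies within the vehicle range for Rrm2, Ccne2, Mcm4 and Clspn.

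The 4 other genes of histone supply and chromatin assembly did not pass in edgeR. Of all 6 genes of this role, 4 had an unadjusted p under 0.05 in edgeR. DESeq2 called 3 of the 6, with Casp8ap2 among them (adjusted p = 0.0329), and limma called 1. Casp8ap2, needed for the processing of replication-dependent histone transcripts, was at 114, 115, 116, 112 and 114 CPM and 115, 130.2, 119, 127 and 131 CPM. The vehicle libraries were close together, CK2i 1 was among them and the other 4 above (log2 difference 0.12 ± 0.042, edgeR adjusted p = 0.0689, with adjusted p of 0.0378 and 0.0485 without CK2i 1 or CK2i 3). Nasp, a histone chaperone, was at 227, 244, 213, 235 and 238 CPM and 249, 254, 239, 277 and 239.6 CPM, with CK2i 1, 2 and 4 above all vehicle libraries (log2 difference 0.12 ± 0.051, edgeR adjusted p = 0.122). Slbp, which binds the stem-loop of histone messages, and Chaf1b, a subunit of the chromatin assembly factor CAF-1, differed by 0.056 ± 0.064 and 0.0069 ± 0.050 log2.

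None of the 9 genes of fork protection, checkpoint signalling and repair passed in edgeR, where 3 had an unadjusted p under 0.05, and DESeq2 called 1 and limma 0. Clspn, claspin, carries the checkpoint signal from ATR to CHK1, and was at 111, 119.5, 115, 124 and 124 CPM and 125, 142, 121, 147 and 143 CPM. CK2i 3 was inside the vehicle range and the other 4 above it (log2 difference 0.19 ± 0.061, edgeR adjusted p = 0.0607, or 0.0218 without CK2i 3). Ung, the uracil glycosylase that removes uracil from new DNA, was lower in CK2i on average, at 31.6, 30.5, 30.2, 30.6 and 29.9 CPM in vehicle and 30.2, 27.8, 29.7, 26.2 and 25.4 CPM in CK2i, with 4 CK2i libraries below all vehicle libraries (log2 difference -0.13 ± 0.054, edgeR adjusted p = 0.111). Tipin, which with Timeless steadies the fork and is the most abundant of the 9 by FPKM, was at 117, 126, 109, 122 and 122 CPM and 124, 119, 108, 131 and 115 CPM, with CK2i libraries on both sides of the vehicle range (log2 difference 0.0032 ± 0.057, edgeR adjusted p = 0.976). Dtl, which marks CDT1 for destruction in S phase, differed by 0.078 ± 0.059 log2, and Usp1, a deubiquitinase of PCNA and FANCD2, by 0.065 ± 0.039. The recombination and repair genes Blm, Exo1, Brip1 and Rad51ap1 differed by 0.043 ± 0.061, 0.062 ± 0.037, 0.21 ± 0.092 and 0.077 ± 0.049 log2. The edgeR adjusted p of Brip1, a helicase of the Fanconi anaemia pathway, was 0.135, and the others were higher.

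Ubr7, which encodes a UBR box ubiquitin ligase, was nearly constant in vehicle libraries, at 131, 130.4, 129.5, 131 and 131 CPM, and lower in each CK2i library, at 121, 114, 123, 128 and 117 CPM. It was the only 1 of the 42 genes with all CK2i libraries below all vehicle libraries, where 5.76% of all tested genes were so. The difference of -0.12 ± 0.036 log2 missed the threshold (edgeR adjusted p = 0.0534), and passed it without CK2i 3 or CK2i 4 (0.0474 and 0.0342). With all 10 libraries DESeq2 called Ubr7 lower (adjusted p = 0.0196). Wdr76, a WD repeat protein, differed by 0.11 ± 0.060 log2 (adjusted p = 0.208).

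Lists of further genes of the same processes were read beside the 13.2% of all tested genes that passed. Of 42 other replication genes, such as the origin recognition complex, polymerases delta and epsilon and further clamp loader subunits, 2 rose and 1 fell, with a median log2 difference of 0.019. An unadjusted p under 0.05 was reached by 14 of these 42 in edgeR, and DESeq2 called 5 higher and 2 lower. Dna2, a nuclease that trims Okazaki fragments, rose by 0.20 ± 0.040 log2 (edgeR adjusted p = 0.0175), with no overlap of the groups. Topbp1, an activator of ATR, rose by 0.16 ± 0.044 (0.0401), and Rnaseh2c, a subunit of ribonuclease H2, fell by 0.20 ± 0.047 (0.0278). Of 14 other genes of nucleotide supply none rose and 1 fell (median -0.021), while 4 were higher at an unadjusted p under 0.05 in edgeR and DESeq2 called 3 higher and limma 0. The gene that fell was Mthfd1, an enzyme of folate metabolism, by 0.30 ± 0.073 log2 (edgeR adjusted p = 0.0296). Tk1, thymidine kinase, another enzyme of S phase, averaged 105 ± 9.60 and 122 ± 9.33 CPM (edgeR adjusted p = 0.0597, not past the threshold). None of 14 further genes of chromatin replication passed (median 0.041), among them Dnmt1, the partner of Uhrf1, at 640.4 ± 22.8 and 690.3 ± 22.5 CPM (edgeR adjusted p = 0.0709). An unadjusted p under 0.05 was reached by 4 of those 14 in edgeR's test, and DESeq2 called 4 and limma 0.

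In the E2F and RB network 2 of 22 further genes rose and none fell (median 0.049), with 1 lower at an unadjusted p under 0.05 in edgeR and 0 called lower by DESeq2 or limma. E2f2, an activating E2F factor, rose from 35.6 ± 4.07 to 53.5 ± 7.09 CPM, by 0.59 ± 0.10 log2 (edgeR adjusted p = 0.0121). Its vehicle libraries were at 31.4, 36.0, 31.6, 38.3 and 40.7 CPM and its CK2i libraries at 47.5, 60.2, 45.1, 54.0 and 60.6 CPM, without overlap. The estimate was above that of each of the 42 genes. Mybl2, a partner of the complex that drives late cell cycle genes, rose by 0.26 ± 0.049 log2 (edgeR adjusted p = 0.0159), also without overlap. Of 26 genes of G2 and mitosis 4 rose and 1 fell (median 0.088). Log2 differences lay above 0 for 24 of these 26, and 13 were higher and 1 lower at an unadjusted p under 0.05 in edgeR. Cenpa, the centromeric histone, fell by 0.25 ± 0.041 log2 (edgeR adjusted p = 0.0104). Among those that rose, Ncapd2, a condensin subunit, differed by 0.20 ± 0.053 (0.0340), Kif20a, a mitotic kinesin, by 0.15 ± 0.042 (0.0452) and Aurka, a mitotic kinase, by 0.15 ± 0.044 (0.0466). The largest rise of this list was that of Mki67, by 0.40 ± 0.12 log2 (edgeR adjusted p = 0.0492), with CK2i 3 inside the vehicle range. Without CK2i 3 the calls upward were 7 of the other replication genes, 4 of the E2F and RB network and 10 of the G2 and mitosis genes. Without CK2i 5 they were 1, 2 and 0. Over all tested genes the calls upward in these fits were 1727 of 14459 and 192 of 14453. Calls in either direction were 22.1% and 3.09% of all tested genes.

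Genes that mark progenitors and other cell types were examined in the same libraries. All 8 progenitor markers were expressed, and of these 2 rose and 1 fell in edgeR. At an unadjusted p under 0.05 in edgeR 4 were higher and 2 lower. DESeq2 called 3 higher and 2 lower, and limma called 0 in either direction. Mpo, a granule enzyme of myeloid progenitors, rose from 2837 ± 713 to 4379 ± 814 CPM (edgeR adjusted p = 0.0451) and Spi1, which encodes the myeloid factor PU.1, from 41.6 ± 7.90 to 59.5 ± 10.2 CPM (edgeR adjusted p = 0.0428). Kit, a receptor of stem and progenitor cells, fell from 269 ± 16.0 to 225 ± 19.2 CPM (edgeR adjusted p = 0.0302). Cd34, another progenitor marker, was at 179 ± 29.4 and 197 ± 14.8 CPM (edgeR adjusted p = 0.388). Markers of B cells and of T and NK cells summed to 14.2 to 20.4 and 3.53 to 4.71 CPM in vehicle and to 16.1 to 20.8 and 3.27 to 3.77 CPM in CK2i libraries. Only 2 of 6 B cell and 3 of 7 T and NK cell markers passed the filter on low counts, and none of those passed in edgeR (1 of each list at an unadjusted p under 0.05, and 1 and 0 by DESeq2). Of 8 erythroid markers 4 rose and 1 fell (summed level 1397 to 1805 CPM in vehicle, 1114 to 1447 in CK2i). At an unadjusted p under 0.05 in edgeR 5 were higher and 3 lower. The 4 that rose were Hbb-bs (mean 44.5 in vehicle and 122 CPM in CK2i), Hba-a1 (62.6 and 128), Slc4a1 (24.5 and 78.6) and Alas2 (4.29 and 8.72). Car1, which made up most of the summed erythroid level in vehicle libraries, fell from 1187 to 696 CPM. Of 7 platelet markers 4 fell (2138 to 3356 and 1210 to 2575 CPM). All 7 were lower at an unadjusted p under 0.05 in edgeR, and DESeq2 called 5 lower and limma 2. Of 8 neutrophil and 8 monocyte markers 2 and 3 rose (21.4 to 56.4 and 32.7 to 99.2 CPM, and 199 to 336 and 279 to 448 CPM). At an unadjusted p under 0.05 in edgeR 2 and 4 of them were higher. Of 6 plasma cell markers 1 fell (658 to 856 and 412 to 627 CPM), and 4 were lower at an unadjusted p under 0.05 in edgeR. Of 7 stromal and endothelial and 5 epithelial markers 7 and 4 were tested, and none of those passed in edgeR (2 and 0 at an unadjusted p under 0.05, and 1 and 0 by DESeq2), and Krt19 was at 0 in all libraries. The part that shifts between these cell types had in the rise of Rrm2, Hells, Ccne2 and Uhrf1 was not tested.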

How the data were processed

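The members and gene lists were chosen with earlier results of these data known. The library kit marks strand and starts from total RNA, and reads were paired, per the labels' protocols. The authors deposited 1 table with estimated counts from RSEM 1.2.31 and FPKM values per gene, with Bowtie2 and DESeq2 also named and the build mm10, per the submitters' processing notes. The deposited estimated counts are whole numbers and were used as such, after 2 blank lines were left out. The FPKM values, scaled by the authors for length and depth, served to compare levels between genes. The sources used here do not give the annotation or the strand setting. RSEM splits reads shared by near-identical copies, and of the named pseudogenes of members, Pcna-ps2 had at most 5 reads.

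Total counts were 37569160 to 43636152 in vehicle and 34127674 to 40811539 in CK2i libraries. Replicates of a group differed beyond sampling noise (chi-square per degree of freedom 10.9 to 73.6). The main test was edgeR 4.0.16 (R 4.3.3), quasi-likelihood, two-sided, TMM scaling, group as the only term, filterByExpr with a minimum count of 10 and Benjamini-Hochberg adjustment over 14346 genes. Intervals are 95% from its standard errors. CPM values use TMM scaling. The script was tested on simulated counts. Symbols and coordinates are from GENCODE M21 (GRCm38, the same assembly as mm10), which matched 37570 of 38887 identifiers. Alternatives used DESeq2 1.42.0, limma 3.58.1 and sva 3.50.0. By the rule for naming, values in each library were given for the 12 genes of smallest p and the most abundant gene of each role, and up to 3 calls in each direction from each further list, while marker genes were named where they check the cell type. Named outside this rule after their values were seen were Tk1 and Dnmt1, as partners of genes described, and Mki67, as the largest rise of its list. Within-complex ratios were also added after seeing the data.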

Additional observations from a re-analysis of the deposited data

Results flagged for a closer look

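In 6 of 84 groups of 5 libraries (42 genes, 2 treatments) 1 library stood apart from the others by Dixon's criterion, where chance gives about 1 in 20. CK2i 4 was high for Mcm2 (443 CPM, next 417 CPM) and for Rrm1 (694 CPM, next 622 CPM). Vehicle 2 was high for Cdc45 (81.2 CPM, next 74.0 CPM) and for Gins2 (39.2 CPM, next 35.6 CPM). Vehicle 5 was high for Blm (113 CPM, next 104 CPM), and CK2i 2 was low for Rfc2 (126 CPM, next 141 CPM). None of these genes passed edgeR's test between the groups.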

How the results depend on the processing

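Log2 differences of the 42 genes kept their sign in all but 46 of their values under the 19 alternatives. These 46 values belonged to 15 genes and were never called (lowest adjusted p 0.579). With upper-quartile scaling they were -0.0028 for Mcm5, -0.016 for Gins2, -0.014 for Rpa2, -0.016 for Fen1, -0.0095 for Chaf1b and -0.013 for Tipin. With no filter on low counts they were -0.0084 for Gins2, -0.0071 for Rpa2, -0.0083 for Fen1, -0.0022 for Chaf1b and -0.0061 for Tipin. With 1 surrogate variable, whose correlation with the group was 0.70 in size, they were -0.014 for Cdc45, -0.038 for Gins2, -0.086 for Pola1, -0.055 for Dscc1, -0.044 for E2f8, -0.037 for Dtl, -0.00068 for Tipin, -0.083 for Blm, -0.067 for Brip1 and -0.034 for Wdr76, of which those of Pola1, Blm, Brip1 and Dscc1 are of a size with the median of the set. With CK2i 2 and 5 both left out Blm was at -0.030. When 1 library was left out, the ranges that crossed 0 were -0.011 to 0.035 for Mcm5, -0.074 to 0.0027 for Cdc6, -0.029 to 0.033 for Gins2, -0.026 to 0.023 for Rpa2, -0.027 to 0.016 for Fen1, -0.025 to 0.027 for Chaf1b and -0.033 to 0.036 for Tipin. The median over the 42 genes stayed above 0, at 0.055 to 0.099 without single libraries. Counts of calls moved more. Of the 42 genes 2 were higher with upper-quartile scaling, with limma on log2(FPKM + 1) or log2(FPKM + 0.1) and with no filter, 8 higher and 1 lower with DESeq2, 0 with the surrogate variable and 0 without CK2i 2 and 5, and 0 to 9 were higher and 0 to 1 lower without single libraries. Over all tested genes the calls higher and lower were 1713 and 1463 with DESeq2, 606 and 591 with limma at a pseudocount of 1 (593 lower at 0.1), 15 and 15 with the surrogate variable, 73 and 102 without CK2i 2 and 5, and 182 to 1727 and 254 to 1471 without single libraries. The cause of these shifts was not tested. Other replication genes gave 5 higher and 2 lower with DESeq2, 0 lower with limma at a pseudocount of 1, 1 higher with no filter, 0 and 0 with the surrogate variable or without CK2i 2 and 5, and 1 to 7 and 0 to 2 without single libraries. Nucleotide supply gave 3 and 2 with DESeq2, 0 lower with the surrogate variable or without CK2i 2 and 5, and 0 to 3 and 0 to 2 without single libraries. The E2F and RB network gave 5 higher with DESeq2, 1 with limma at either pseudocount, 0 with the surrogate variable or without CK2i 2 and 5, and 2 to 4 without single libraries. Chromatin replication gave 1 higher with RLE scaling, 4 with DESeq2 and 0 to 2 without single libraries. G2 and mitosis gave 2 higher with upper-quartile scaling, 9 with DESeq2, 1 with no filter, 0 and 0 with the surrogate variable, 0 higher without CK2i 2 and 5 and 0 to 10 higher without single libraries. The log2 ratio of Rrm2 to Rrm1 differed by 0.28 to 0.36 and that of Mcm4 to the MCM sum by 0.059 to 0.081 without single libraries.

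With the replicate number as a block, 3 of the 42 genes were higher (Rrm2, Hells and Clspn), with 457 higher calls over all tested genes, 1 higher and 0 lower among other replication genes, 1 and 0 in nucleotide supply and 1 higher in G2 and mitosis. The numbers are not a pairing by the labels, and deviations of libraries with the same number correlated at 0.228, 0.114, 0.068, 0.030 and -0.159. By the plan the block was to stand beside results only if each of these 5 correlations was over 0.1, which did not hold. The values with the block, here and for Ccne2 and Uhrf1, are given outside that plan. Not every sample correlated best with its own number. Depth did not limit the 42 genes, all of which passed the filter, but 5 libraries per group allow no exact permutation p below 0.00794.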

Other observations

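For Tyms, counts and FPKM told the groups apart to different degrees. On counts its log2 difference was 0.17, and on FPKM it was 0.037. The transcript length implied by the ratio of count to FPKM was 1168 ± 32.4 bases in vehicle and 1292 ± 141 bases in CK2i libraries (SD, n = 5), with 1520 bases in CK2i 2, 1326 in CK2i 5 and 1162 to 1236 in CK2i 1, 3 and 4. Among 8637 genes with at least 5 FPKM in every library, 0.961% had a larger change of implied length than Tyms. No other of the 42 genes had a change above 0.066 log2 in size, the value of Ung (-0.066).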
